A study of Mus musculus with 2 samples.

Results

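Fibroblast growth factor (FGF) genes were examined in fetal mouse ureters with and without conditional inactivation of Pparg. The genes were chosen by name from the array design: Fgf genes, the receptor genes Fgfr1 to Fgfr4 and Fgfrl1, the binding protein genes named Fgfbp, and the Spry, Spred, Dusp4, Dusp6, Etv1 and Etv4 genes. This rule found 40 genes, measured by 65 probes, of 29923 genes and 39429 probes on the arrays.

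FGFs are secreted proteins that bind receptor tyrosine kinases together with heparan sulfate on the cell surface. The receptors signal through RAS and the kinases MEK and ERK, which switch on Etv transcription factors and inhibitors such as the Sprouty, Spred and Dusp6 proteins that restrain the pathway. In the developing urinary tract, FGFs from the mesenchyme, such as FGF7 and FGF10, act on receptors of the epithelium. A small subfamily, encoded by Fgf11 to Fgf14, stays inside the cell and binds sodium channels.

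Ureters came from E18.5 embryos of the outbred NMRI strain. Each of 2 two-color arrays held a pool from Pparg-cKO embryos (Pax2-cre/+; Pparg(fl/fl)) and a pool from controls (Pparg(fl/?), the other allele not given). Per the study's methods, controls were littermates without cre. Replicate 1 was a female and replicate 2 a male pair of pools, with swapped dyes, so that sex, dye and array cannot be told apart. The Pax2-cre transgene is active in the nephric duct and its derivatives, including the ureteric epithelium, whereas the RNA came from whole ureters. In such bulk RNA, fewer cells of a type and less RNA per cell cannot be told apart. Pooling leaves no measure of the spread between embryos. The p-values rest on the spread between the 2 arrays, which limma moderates with that of all genes tested.

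All directions are those of the deposited ratios, whose columns are titled Pparg-cKO against control. The dye labels run the opposite way on both arrays. The deposited direction is likely the right one, given the column titles and the tissue sections of the study. If the dye labels hold as written, every "higher" and "lower" below is exchanged, whereas sizes, counts and p-values stay. In the deposited direction, the targeted gene Pparg read 12357 and 12930 units of processed signal in the Pparg-cKO pools (female, then male) and 6113 and 6688 in the controls. The study describes an increased mutant transcript that lacks the deleted exons, so that this probe does not settle the direction. In the same direction the superficial cell gene Krt20 read -3.14 and -3.03 and the signaling gene Shh -1.72 and -1.09 on the log2 scale. Both genes are covered by the tissue sections that the choice of direction rests on.

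The tissue was checked against its markers. The 13 urothelial genes and the 9 genes of ureteric mesenchyme and smooth muscle were well above background in all pools, whereas the kidney tubule genes Umod and Slc12a1 were in none. The summed processed signal of the urothelial genes was 88538 and 109737 in the female and male Pparg-cKO pools and 127709 and 110864 in the controls. Their median log2 ratio was -0.40 for the female and 0.35 for the male pair. The uroplakin gene Upk1a was lower on both arrays, at -1.91 and -1.12, whereas the epithelial cadherin gene Cdh1 read 0.07 in the female and 1.10 in the male pair. The male array also held more changes of at least 1.5-fold: of 14015 sufficiently bright genes, 6.30% were higher and 1.95% lower there, and 1.20% were higher and 1.85% lower on the female array.

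Of the 40 FGF genes, 35 passed the signal filter, with a probe well above background in 1 or both channels of each array, and were tested. The probes of Fgf3, Fgf4 and Fgf15 were well above background in none of the 4 pools, those of Fgf21 and Spred3 in 1 pool and that of Fgf2 in 3 pools, whereas 32 genes were in all 4. Fgf16 and Fgf20 were detected in the green channel of both arrays and not in the red, that is, in the control pool on one array and in the Pparg-cKO pool on the other. Detection of these genes thus went with the dye. Only 16 of the 40 genes reached a processed signal of 100 in the brighter channel on each array.

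The probe of Fgfbp1 is shown because its result rests on it, and 1 probe each of Fgfr3, Fgfr1 and Fgfr4 because these serve below as a second reading of the receptor genes. The values of the receptor genes come from other, brighter probes that are not printed. Each sequence is given 5′ to 3′ with its mm9 design position, and the designs give no exon for them. Fgfbp1 was read by a single probe at chr5:44370565-44370624 on the minus strand. The Fgfr3 probe comes from chr5:34077856-34078090, an interval longer than the probe itself, as for a design across a splice junction. The Fgfr1 probe lies at chr8:26684061-26684120 and the Fgfr4 probe at chr13:55269212-55269271, all 3 on the plus strand.
Fgfbp1: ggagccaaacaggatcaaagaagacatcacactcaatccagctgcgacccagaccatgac
Fgfr3: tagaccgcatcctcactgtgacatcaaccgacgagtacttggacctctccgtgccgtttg
Fgfr1: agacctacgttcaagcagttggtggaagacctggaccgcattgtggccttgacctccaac
Fgfr4: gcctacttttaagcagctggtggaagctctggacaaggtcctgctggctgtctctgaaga
The receptor genes are related in sequence, and the printed probes were compared for this reason. In the best alignment without gaps, the Fgfr1 and Fgfr4 probes matched at 35 of 58 bases (60.3%), the Fgfr1 and Fgfr3 probes at 20 of 35 (57.1%) and the Fgfr3 and Fgfr4 probes at 21 of 50 (42.0%).

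Fgfbp1, which encodes a secreted carrier that releases FGFs from heparan sulfate in the matrix, had the largest mean difference of the FGF genes. Its processed signal was 172 in the female and 123 in the male Pparg-cKO pool, against 30.6 and 28.8 in the controls. The 4 pools were all well above background. Log2 ratios of 1.94 in the female and 1.63 in the male pair averaged 1.79 ± 0.22 (SD, n = 2 arrays), or 3.45-fold. With normexp without an offset the mean was 2.10 on the log2 scale, and the ratio of the scanner's processed signals was 4.89-fold. The spread over its 4 spots was 0.10 and 0.11 on the log2 scale.

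It was the 1 FGF gene, of 16 bright enough, that differed at least 1.5-fold the same way on both arrays at a signal of at least 100, and it was higher. Its control pools, at 30.6 and 28.8 units, were below that signal, so that it entered this rule through the Pparg-cKO pools alone. Among all genes bright enough, 0.792% were higher and 1.05% lower by this rule. It was also the 1 FGF gene, of 35 tested, with an adjusted p below the 0.05 threshold in limma (adjusted p = 0.0120), where 0.751% of all genes passed. The limma call was lost with moderation that follows signal intensity (adjusted p = 0.119) and with the deposited table of fold changes (adjusted p = 0.533), in which no gene of the array was called and 2101 had an unadjusted p under 0.05. The adjusted p ranged from 1.17e-05 to 0.533 over 8 alternatives. By a signal threshold of 200 the gene was too dim for the fold rule.

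The related gene Fgfbp3 gave 137 and 222 units in the female and male Pparg-cKO pools and 122 and 137 in the controls. The female Pparg-cKO pool did not exceed the male control pool. Its log2 ratios of 0.11 in the female and 0.68 in the male pair averaged 0.40 ± 0.41 (SD, n = 2), and limma gave an adjusted p of 0.624.

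**Figure D1:**
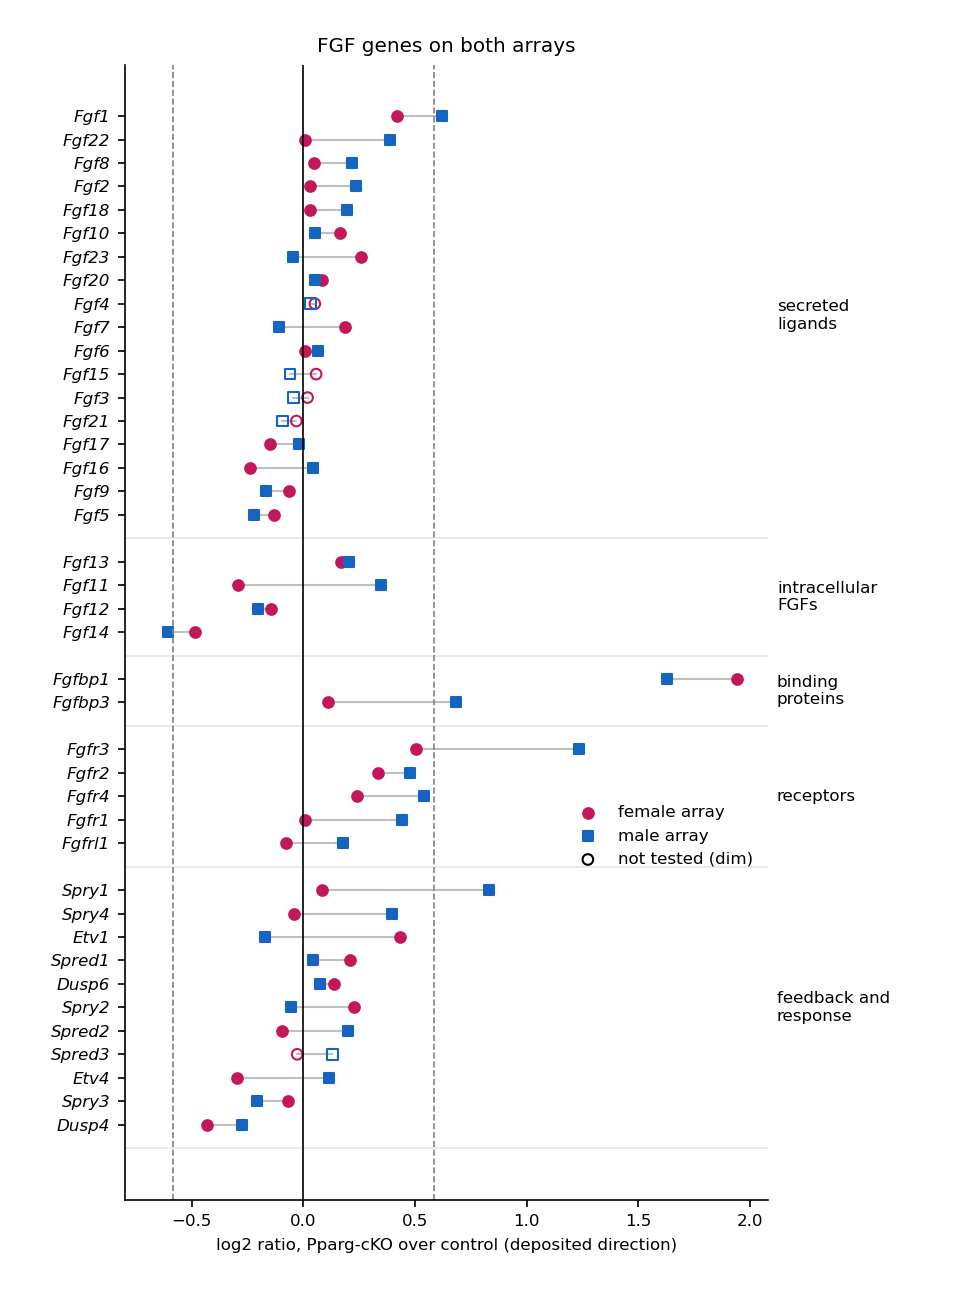
Log2 ratio of Pparg-cKO over control (x axis) for the 40 FGF genes (y axis, grouped by role and ordered by their mean). Circles are the female and squares the male array, open symbols are genes too dim to be tested, and dashed lines mark 1.5-fold. Fgfbp1 lies at 1.94 and 1.63, beyond the line on both arrays, whereas Fgfr3, Spry1, Fgfbp3 and Fgf1 lie beyond it on the male array and Fgf14 at -0.61 on the male array below the lower line.

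After Fgfbp1, the largest mean was that of the receptor gene Fgfr3, and of the role groups with at least 4 genes the receptors had the highest median. Fgfr1 to Fgfr4 encode the signaling receptors. All 4 had positive log2 ratios on both arrays, as did 26.6% of all genes tested, with Fgfr1 at 0.01 on the female array. Not all other probes of Fgfr1 and Fgfr4 shared this, as given below. Fgfrl1, whose product lacks the kinase domain, read -0.08 and 0.18. The median of the 5 genes was 0.24 on the female array, 0.48 on the male array and 0.39 for the mean, beside 0.01 for the mean over all 22499 genes tested. None of the 5 was called in limma, where 0.751% of all genes were, and 3 of them had an unadjusted p under 0.05, beside 8.51% of all genes.

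Fgfr3, a receptor found in the urothelium, read 1702 and 2845 units in the female and male Pparg-cKO pools and 1159 and 1300 in the controls. Log2 ratios of 0.51 in the female and 1.23 in the male pair averaged 0.87 ± 0.51 (SD, n = 2), or 1.83-fold. This was 1.42-fold on the female array, short of the 1.5-fold required, and 2.35-fold on the male array. The adjusted p in limma was 0.243, and it ranged from 0.0240 (normexp without an offset) to 0.542 over 8 alternatives.

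Fgfr3 was the FGF gene whose probes differed by at least 0.5 log2 units. The probe printed above gave 0.52 and 0.99, close to the 0.51 and 1.23 of the brightest probe. The dimmest probe, designed to a separate transcript at chr5:34074696-34074755, gave 0.04 and 0.22 at signals of 8.40 to 22.6 units. With the scanner's processed signals this probe gave 0.15 and 0.46.

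Fgfr2 encodes the receptor through which FGF7 and FGF10 act on epithelium. It gave 854 and 1155 units in the female and male Pparg-cKO pools and 678 and 807 in the controls. The 2 log2 ratios, 0.34 and 0.48, averaged 0.41 ± 0.10 (SD, n = 2), with a limma adjusted p of 0.350. Its second probe gave 0.22 and 0.57, but both probes share 42 bases of the gene.

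Fgfr4 gave 80.7 and 145 units in the Pparg-cKO pools and 66.7 and 90.6 in the controls, with log2 ratios of 0.24 and 0.54; the groups overlapped. The printed Fgfr4 probe read -0.08 and 0.51 at signals of 13.9 to 26.9 units, so that the female value was not shared by both probes. Fgfr1 gave 2294 and 2919 units in the Pparg-cKO pools and 2359 and 2162 in the controls. Its male log2 ratio of 0.44 was not shared either, since the printed probe gave 0.18 and the third probe -0.06. The adjusted p in limma was 0.461 for Fgfr4 and 0.771 for Fgfr1.

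**Figure D2:**
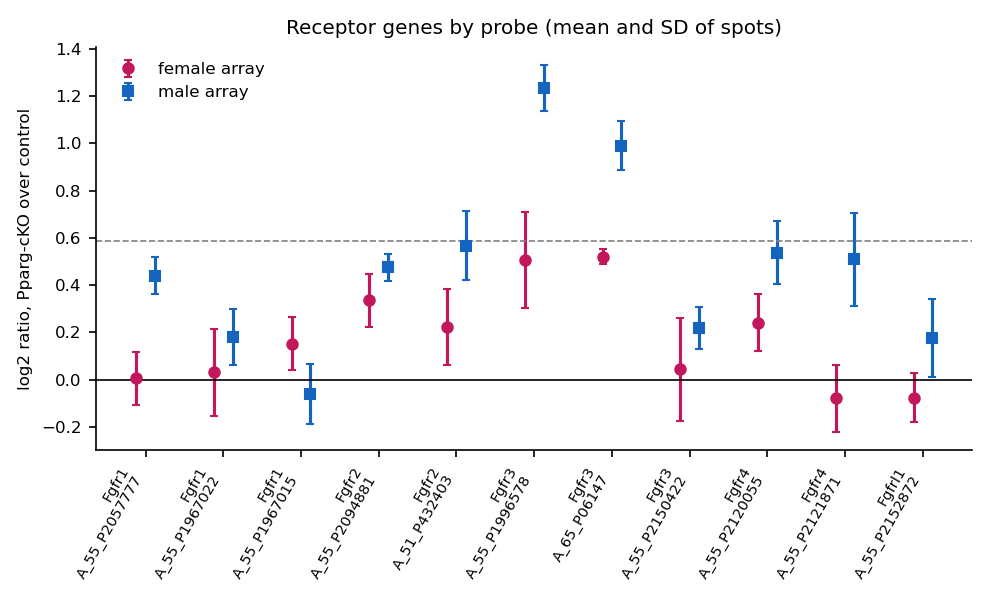
Log2 ratio of Pparg-cKO over control (y axis) for each probe of the 5 receptor genes (x axis), with error bars giving the SD over 3 or 4 spots of the probe on that array. Circles are the female and squares the male array, and the dashed line marks 1.5-fold. The male values of Fgfr3 at 1.23 and 0.99 lie above the female ones at 0.51 and 0.52, whereas the 3 probes of Fgfr1 spread between -0.06 and 0.44 on the male array.

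Several of these values were larger on the male array, the one on which Cdh1 read 1.10. The transcription factor gene Grhl2, also epithelial, read 0.14 in the female and 0.77 in the male pair, and the keratin gene Krt19 read 0.71 and 1.29. Epcam, also epithelial, differed little between the arrays, at 0.41 and 0.48. Krt18 read -1.04 and -0.54, and Trp63 -0.53 and -0.44. The mesenchymal gene Col1a1 read 0.14 and 1.07, whereas the medians of its list were 0.03 and -0.02. Of the 13 urothelial genes, 4 were higher and 6 lower on both arrays, beside 26.6% and 26.2% of all genes tested. The part of epithelial content in the receptor values was not tested. With the male array alone, 5 of the 16 sufficiently bright FGF genes reached 1.5-fold, all higher, and with the female array alone 1 did, beside 6.30% and 1.20% of all such genes. The 5 genes were Fgfbp1, Fgfr3, Spry1, Fgfbp3 and Fgf1.

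**Figure D3:**
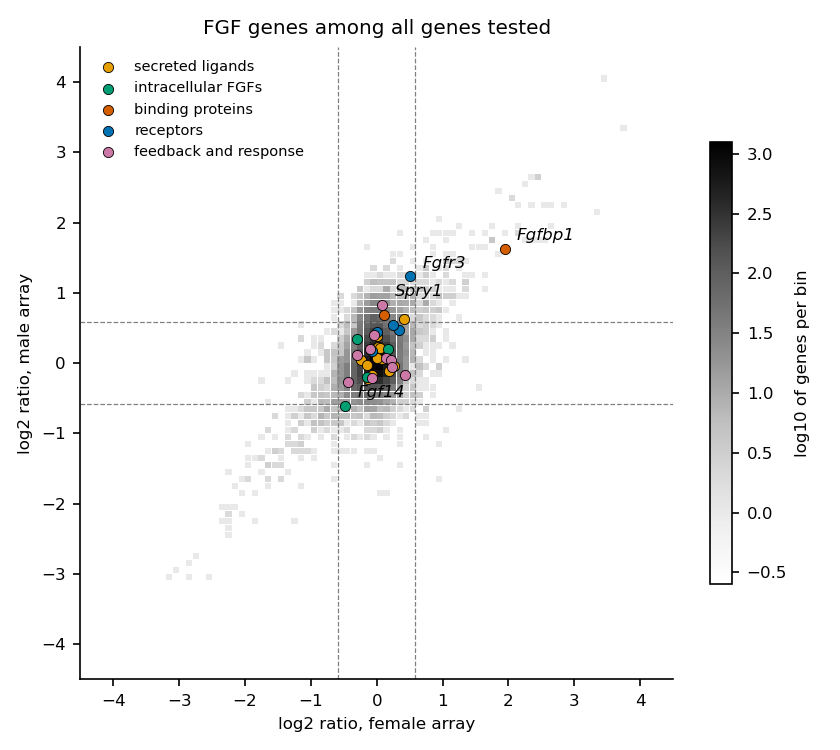
Log2 ratio on the female array (x axis) against that on the male array (y axis). Grey squares are bins of all 22499 genes tested, shaded by the log10 of the genes per bin, and colored points are the 35 FGF genes tested, by role; dashed lines mark 1.5-fold. Fgfbp1 is the FGF gene beyond the lines on both arrays, and Fgfr3 and Spry1 lie above the upper line on the male array only.

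Of the 18 genes of secreted ligands, 14 were tested. Their mean log2 ratios ran from -0.18 (Fgf5) to 0.52 (Fgf1), with a median of 0.09, and 8 were higher and 3 lower on both arrays, beside 26.6% and 26.2% of all genes. None passed limma, and 1 had an unadjusted p under 0.05, namely Fgf1, beside 0.751% and 8.51% of all genes. FGF1, which binds all FGF receptors, had processed signals of 1070 and 1453 in the female and male Pparg-cKO pools and of 804 and 931 in the controls. Log2 ratios of 0.42 and 0.62 averaged 0.52 ± 0.14 (SD, n = 2), or 1.44-fold, and the limma adjusted p was 0.230. A second, dimmer probe of Fgf1 gave 0.26 and 0.28.

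The mesenchymal ligand genes were bright, and their values lay on both sides of 0. Fgf7 gave 1645 and 1529 units in the Pparg-cKO pools and 1512 and 1689 in the controls, with log2 ratios of 0.19 and -0.11. Fgf10 gave 764 and 724 against 653 and 735 units, with ratios of 0.17 and 0.05. Fgf18 gave 810 and 837 against 764 and 745 units, with ratios of 0.03 and 0.19. Fgf7 thus changed sign between the arrays, and the lowest limma adjusted p of the 3 genes was 0.881.

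The other ligands were dim, apart from Fgf23. Fgf22 gave 20.0 and 32.4 units in the Pparg-cKO pools and 20.0 and 21.2 in the controls, and the log2 ratio of 0.39 on the male array had no counterpart on the female array, at 0.01. That probe was designed to a transcript with no match among the RefSeq accessions, and the probe of the RefSeq transcript of Fgf22 was well above background in no pool, with a mean of -0.02. The same held for Fgf6, whose RefSeq probe had a mean of -0.05. Fgf5 gave 50.1 and 46.4 against 54.5 and 61.7 units, with log2 ratios of -0.13 and -0.22 and an adjusted p of 0.749. Fgf9, an epithelial and mesothelial ligand, had log2 ratios of -0.07 and -0.17, and Fgf8 of 0.05 and 0.22. The means of Fgf2, Fgf6, Fgf16, Fgf17 and Fgf20 lay between -0.10 (Fgf16) and 0.13 (Fgf2).

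Fgf23, which encodes a hormone made in bone, had signals of 5666 to 6851 units, with log2 ratios of 0.26 and -0.05. These came from 1 of its 2 probes, at chr6:127030758-127030817 on the plus strand. The other probe, at chr6:127031289-127031348, read 0.888 to 1.63 units and was well above background in no pool. The first 30 bases of the bright probe are shown because they hold a dinucleotide repeat, in capitals.
Fgf23: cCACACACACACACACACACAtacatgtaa
A repeat of at least 10 CA or TG units occurred in 76 probes of the array, and 76 of these were well above background in all 4 pools, whereas 66.3% of all probes were. No other FGF probe held such a repeat. The level of Fgf23 is therefore uncertain, and whether the bright probe reads other transcripts was not tested.

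Among the intracellular FGF genes, Fgf14 stood lowest. Its brightest probe gave 20.6 and 18.7 units in the female and male Pparg-cKO pools and 37.2 and 37.0 in the controls. Log2 ratios of -0.49 and -0.61 averaged -0.55 ± 0.08 (SD, n = 2), with a limma adjusted p of 0.179. All 3 probes of Fgf14 gave negative values, with means of -0.55, -0.39 and -0.34, and they lie apart on chromosome 14. The mean was -0.74 with normexp without an offset and -0.92 with scanner-processed signals. It was called lower with normexp without an offset (adjusted p = 0.0204) and with the moderation that follows intensity (adjusted p = 0.0333; over all genes 9 higher and 250 lower calls, against 86 and 83 without it), and over 8 alternatives the adjusted p reached 0.654.

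Fgf13 gave 37.6 and 42.1 units in the Pparg-cKO pools and 30.98 and 36.8 in the controls, with log2 ratios of 0.17 and 0.20 and an adjusted p of 0.725. Its second probe had a mean of -0.01. Fgf12 read -0.14 and -0.20, and Fgf11 read -0.29 in the female and 0.35 in the male pair. None of the 4 genes was bright enough for the fold rule.

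**Figure D4:**
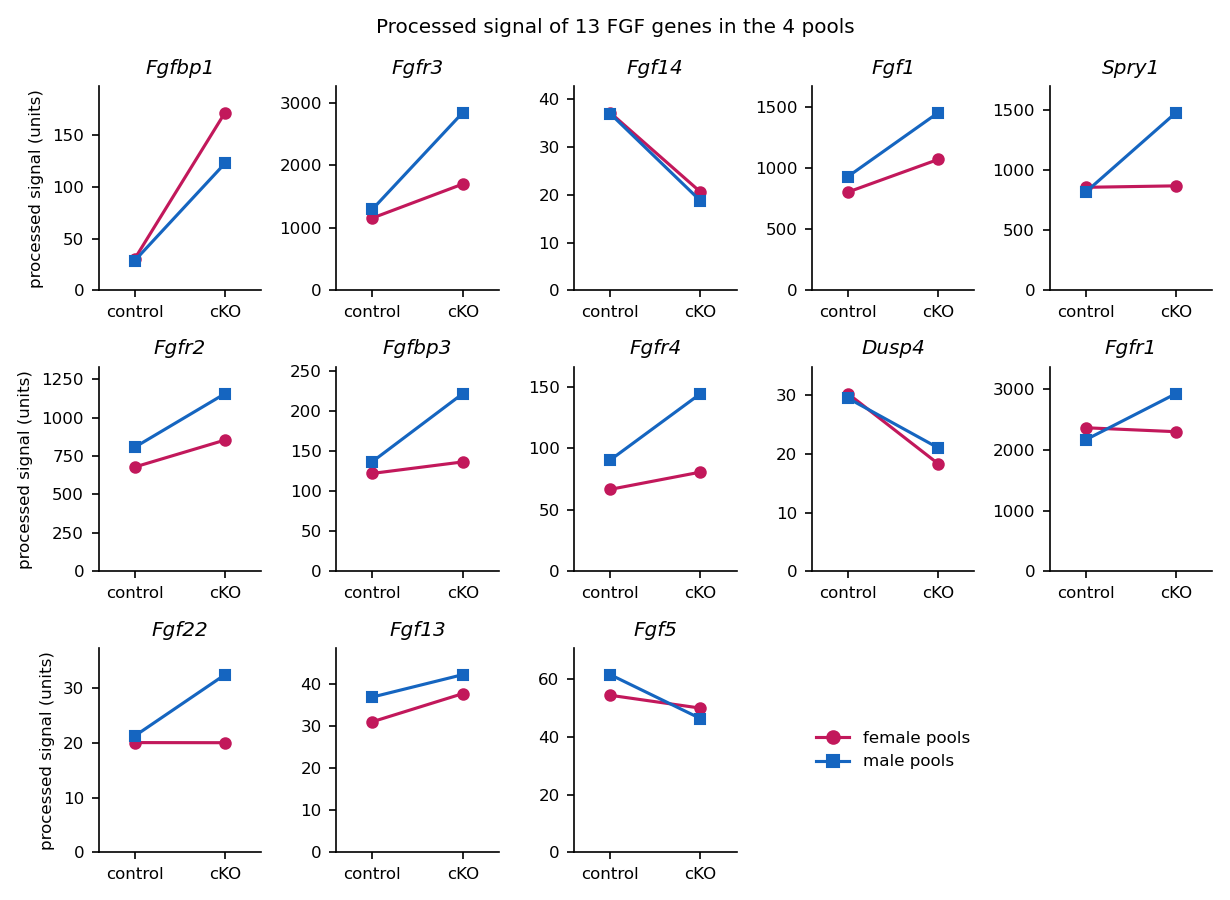
Processed signal in scanner units (y axis, from 0, separate for each gene) in the control and Pparg-cKO (cKO) pools (x axis) of the 13 FGF genes described by the naming rule. Lines join the 2 pools of an array, with circles for female and squares for male pools. Fgfbp1 reaches 172 and 123 units from 30.6 and 28.8, Fgf14 lies at 20.6 and 18.7 below 37.2 and 37.0, and Spry1 differs between the male pools alone.

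Genes that respond to FGF signaling lay on both sides of 0. Of 11 feedback and response genes 10 were tested, with mean log2 ratios from -0.35 (Dusp4) to 0.46 (Spry1) and a median of 0.10. On both arrays 3 were higher and 2 lower, beside 26.6% and 26.2% of all genes, and 5 had opposite signs. None was called in limma, and 1 had an unadjusted p under 0.05, beside 0.751% and 8.51% of all genes. Dusp6, an ERK phosphatase gene and a common readout of FGF signaling, gave 1961 and 1912 units in the Pparg-cKO pools and 1840 and 1808 in the controls. Its log2 ratios of 0.14 and 0.07 averaged 0.11 ± 0.05 (SD, n = 2), with a limma adjusted p of 0.885.

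Spry1, which encodes a Sprouty inhibitor of receptor signaling, was the largest of these genes. Its signal was 870 in the female and 1478 in the male Pparg-cKO pool, and 857 and 817 in the controls. The male Pparg-cKO pool stood apart, and the other 3 pools lay close together. It read 0.08 in the female and 0.83 in the male pair on the log2 scale, a gap of 0.75 between 2 single pairs of pools that was not tested. The mean of 0.46 ± 0.53 (SD, n = 2) had an adjusted p of 0.641 in limma. Spry4 likewise read -0.04 and 0.40, whereas Spry2 read 0.23 and -0.06 and Spry3 -0.07 and -0.21.

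Dusp4, which encodes a nuclear phosphatase of ERK, gave 18.3 and 21.0 units in the Pparg-cKO pools and 30.2 and 29.5 in the controls. Its log2 ratios of -0.43 and -0.28 averaged -0.35 ± 0.11 (SD, n = 2), with a limma adjusted p of 0.441. The mean of Dusp4 was -0.61 with scanner-processed signals and -0.62 with the deposited table. The Ets factor genes Etv1 and Etv4 had opposite signs on the arrays, with 0.43 and -0.17 for Etv1 and -0.30 and 0.11 for Etv4. The second, dimmer probe of each kept one sign, with 0.13 and 0.10 for Etv1 and -0.19 and -0.07 for Etv4. Spred1 read 0.21 and 0.04, and Spred2 -0.10 and 0.20.

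Counted over all 35 FGF genes tested, 18 were higher and 7 lower on both arrays, whatever the size, where 26.6% and 26.2% of all genes tested were. Their median log2 ratio was 0.03 on the female array, 0.11 on the male array and 0.11 for the mean. For 26 of the 35 genes the mean was below 1.2-fold in either direction. An unadjusted p under 0.05 was found for 7 FGF genes, 5 higher and 2 lower, where 8.51% of all genes had one.

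Other genes of the pathway were counted in the same way. Of 59 genes for co-receptors and matrix partners, signal transduction and further ERK response, 57 were tested and 49 were bright enough for the fold rule. By that rule 0 passed, beside 0.792% higher and 1.05% lower of all genes bright enough. In limma 0 were called and 6 had an unadjusted p under 0.05, beside 0.751% and 8.51% of all genes. The 22 co-receptor and matrix genes tested had a median mean log2 ratio of 0.10, the 22 transduction genes of 0.10 and the 13 further response genes of 0.18. The medians on the male array were 0.16, 0.21 and 0.26, and those on the female array -0.01, -0.02 and 0.03.

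The largest mean values among these genes belonged to Flrt1, which encodes a membrane protein that binds FGF receptors. It gave 552 and 1195 units in the Pparg-cKO pools and 375 and 471 in the controls, with log2 ratios of 0.56 and 1.29 and an adjusted p of 0.213. Kl, which encodes the FGF23 co-receptor Klotho, gave 10.69 and 10.44 units against 32.7 and 29.0. Its log2 ratios were -0.79 and -0.75, with an adjusted p of 0.0685, and its signals were the lower ones in both Pparg-cKO pools. The perlecan gene Hspg2 read -0.02 and 1.17 and the heparan sulfate sulfotransferase gene Hs6st1 0.02 and 0.93, both on the male array alone. The early response gene Fos read -0.44 and -0.59, and Flrt2 0.69 and 0.20.

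The promoters of Fgfbp1 and Fgfr3, the largest positive FGF genes, are printed from RefSeq (GRCm38.p6) to show how they differ in composition. Each window holds 250 bases before and 50 after an annotated start, and capitals mark CG dinucleotides and the motif TATAAA. The Fgfbp1 window is chr5:43981750-43982049 on the minus strand, and the Fgfr3 window, the first of 2 starts, is chr5:33721474-33721773 on the plus strand.
Fgfbp1: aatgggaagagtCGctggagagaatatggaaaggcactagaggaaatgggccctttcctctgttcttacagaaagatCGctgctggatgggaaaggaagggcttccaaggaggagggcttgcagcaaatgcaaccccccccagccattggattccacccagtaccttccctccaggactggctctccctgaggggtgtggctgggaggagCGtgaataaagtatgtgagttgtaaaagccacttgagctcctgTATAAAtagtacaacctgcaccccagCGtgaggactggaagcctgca
Fgfr3: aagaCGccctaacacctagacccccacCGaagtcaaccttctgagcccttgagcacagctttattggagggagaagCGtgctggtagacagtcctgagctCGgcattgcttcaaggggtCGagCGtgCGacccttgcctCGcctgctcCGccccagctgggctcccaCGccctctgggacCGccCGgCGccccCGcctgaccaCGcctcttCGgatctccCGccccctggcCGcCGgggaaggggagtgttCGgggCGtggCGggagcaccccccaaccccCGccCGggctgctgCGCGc
The Fgfbp1 window holds 4 CG dinucleotides and 53.3% G and C, with TATAAA at bases 254 to 259 of the window. The Fgfr3 window holds 26 CG dinucleotides, 69.7% G and C and no TATAAA. Neither window held AGGTCA, the half-site of nuclear receptors such as PPARG, on either strand. These letters describe the windows and say nothing about binding.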

How the data were processed

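The scanner output gave, per the file headers, intensity values of each spot (mean signal, median background, processed signal) and a log10 ratio (not used), from Agilent Feature Extraction 10.7.3.1 on probes of build mm9. The authors' deposited table held a signed fold change per probe, a score, used for the direction and as an alternative.

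Signals were corrected with normexp (offset 50) and normalized by loess within each array (limma 3.58.1, R 4.3.3), with control spots at no weight. Spots flagged as outliers were left out, and the 4 spots of a probe were averaged. A gene was represented by its brightest probe. The mean of both turned log2 ratios was tested with limma (two-sided), and p-values were adjusted by Benjamini-Hochberg across 22499 genes. The fit had 1 residual and 4.00 prior degrees of freedom, and precision is limited by the number of arrays. The fit was tested on simulated data. The fold rule required 1.5-fold in the same direction and a processed signal of at least 100 on each array. Named were the FGF genes called, the 12 further ones with the largest mean whose arrays shared a sign, those with arrays at least 1 log2 unit apart or past 1.5-fold in opposite directions (0 genes), those with discordant probes, and the 6 largest other pathway genes; the remaining members were added as a description. One marker list is not reported here. Members and lists were chosen with earlier results of these data known. Of 65 probes, 61 matched a RefSeq transcript by accession, all under the same symbol, and 29 of 40 genes had a promoter sequence.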

Additional observations from a re-analysis of the deposited data

Results flagged for a closer look

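Fgf11, which encodes an intracellular FGF, and Sulf2, which encodes an enzyme that trims heparan sulfate, had opposite signs on the female and male arrays with at least 1.2-fold on each. Fgf11 read -0.29 in the female and 0.35 in the male pair, a difference of 0.64 log2 units, at signals of 28.9 to 46.5 units. Its second, dimmer probe did not show the opposite signs, at -0.09 and -0.06. Sulf2 read -0.41 and 0.28, a difference of 0.68 log2 units. With 1 array per sex, these differences were not tested.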

How the results depend on the processing

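The mean log2 ratio of each of the 13 named FGF genes kept its sign under the alternatives run. With 1 array left out, between 1 and 5 FGF genes passed the fold rule, the higher count on the male array alone. There 965 of all genes were higher and 288 lower, against 176 and 268 on the female array alone. These counts required the signal of at least 100 on the array used, whereas the shares given earlier required it on both arrays. With a signal threshold of 200 the count was 0, and 79 of all genes were higher and 119 lower. In limma, 3 FGF genes were called with normexp without an offset, where 284 of all genes were higher and 287 lower: Fgfbp1, Fgfr3 (mean 0.87) and Fgf14 (mean -0.74). With the deposited fold changes, 0 were called, with 6 FGF genes at an unadjusted p under 0.05; Fgfbp1 then had a mean of 2.29. With moderation that follows intensity, 1 FGF gene was called, which was Fgf14 in place of Fgfbp1, and over all genes 9 were called higher and 250 lower, against 86 and 83. The median of the ligands was 0.0309 with the median over all probes, 0.0569 with the deposited table, 0.04 without a filter on dim probes, 0.11 with probes above background in both channels, and 0.0292 to 0.0515 with 1 array left out. The median of the feedback genes was 0.16 with median centring and 0.0193 to 0.0568 with 1 array left out, and that of all members 0.0311 to 0.114. The median of the receptors stayed between 0.24 and 0.48. The causes of these shifts were not tested. Signal over background limits the dim genes: 24 of the 40 were too dim for the fold rule. Each ratio already pairs the 2 pools of an array, so that no further paired fit was made.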

Other observations

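Promoter windows were found for 29 FGF genes, with 37 annotated starts. G and C made up a median of 69.7% of the 5 receptor windows, beside 52.7% of all 32851 windows. On either strand, AGGTCA occurred in 4 of the 37 windows (10.8%), those of Spry2, Fgf6, Fgf7 and one of Fgf12, beside 16.3% of all windows. The direct repeat AGGTCANAGGTCA, which contains the half-site in both parts, occurred in none of the 37 and in 13 of all. TGANTCA, the motif of AP-1, occurred in 2 (5.41%) beside 7.81%. TATAAA, searched on the strand of the gene, occurred in 4 (10.8%) beside 8.32%: Fgfbp1, Fgf21, Fgf5 and one of Fgf13.

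Most other marker lists are given as values. The median log2 ratio of the 4 liver genes was -0.12 in the female and -1.15 in the male pair. Of these, Alb, Afp and Apoa1 read -0.19, -0.05 and 0.03 in the female and -1.08, -1.21 and -0.59 in the male pair. Ttr, at -2.55 and -3.09, differed from them on the female array. The study names Ttr among superficial cell genes, so that the list does not mark liver alone. The 6 skeletal muscle genes had medians of -0.22 and -0.41, the 5 kidney genes tested -0.06 and -0.22, the 9 genes of ureteric mesenchyme and smooth muscle 0.03 and -0.02, the 4 blood genes 0.09 and -0.14, the 3 endothelial genes 0.18 and 0.23, the 2 adipose genes tested -1.02 and -0.09, the 4 adrenal and gonad genes 0.00 and -0.01, and the 3 mesothelial genes -0.05 and -0.14. The mesothelial medians are those of Wt1, whereas Msln read 2.48 and 2.62 and Upk3b, a uroplakin gene also found in urothelium, -1.70 and -1.65, both called in limma. Their part in the FGF values was not tested.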
